A study of Capra hircus with 6 samples.

Results

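The 10 circadian clock genes CLOCK, ARNTL, PER1, PER2, PER3, CRY1, CRY2, NR1D1, NR1D2 and DBP were followed in the hypothalamus of pubertal and prepubertal goats. The genes were chosen by name as the core of the clock, though with earlier results of these data known. All 10 of them were found among the 20225 genes of the mRNA table, with 21 of its 30679 transcripts. ARNTL, also called BMAL1, carries this symbol in the goat annotation. The libraries came from female Anhuai goats kept under the same conditions on 1 farm, with 3 pubertal goats of 4.5 to 5 months in the late follicular phase and 3 prepubertal goats of 2.5 to 3 months. Each library is the RNA of the hypothalamic tissue of 1 goat, after removal of ribosomal RNA, and all goats received pentobarbital before death. The hour of the day at which the tissue was taken is not given in the sources used here, and neither is a batch.

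The clock is a feedback loop of transcription. CLOCK and BMAL1 bind E-boxes as a pair and drive the PER and CRY genes, whose proteins return to the nucleus and block that pair. In a further loop the same pair drives NR1D1 and NR1D2, the REV-ERB repressors, which hold down ARNTL, so ARNTL RNA peaks when PER, NR1D1 and DBP RNA are low. DBP is an output of the loop, a factor that binds D-boxes in the promoters of other genes. The suprachiasmatic nucleus, the master clock that is set by light, lies in the hypothalamus, but most other cells of this tissue carry clocks of their own and contribute to these RNA levels. In these bulk samples fewer cells of a type and less RNA per cell cannot be told apart.

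Levels are in FPKM, that is, sequenced fragments divided by transcript length and by the mapped fragments of a goat, added up over the transcripts of a gene. Values of single goats follow the order of replicates 1, 2 and 3. The libraries were not alike. Over 14081 genes with a mean of at least 1 FPKM, the first principal component held 37.9% of the variance. It set pubertal replicate 3 apart (36.4, against -17.3 to 0.991 in the others). The stages also did not overlap on it, with -17.3 to -6.00 in prepubertal and -2.73 to 36.4 in pubertal libraries. The second component held 22.1% and set pubertal replicate 1 (20.9) against pubertal replicate 2 (-23.5). Pubertal replicate 3 had the highest summed level of the choroid plexus markers, 329.6 FPKM against 7.11 to 59.5 FPKM in the other libraries, and of the markers of meninges and vessels, 313 FPKM against 58.9 to 149 FPKM. The markers of oligodendrocytes summed to 4267, 1096 and 3126 FPKM in the pubertal goats against 709, 1044 and 1849 FPKM in the prepubertal goats. The markers of meninges and vessels did not overlap between the stages, with sums of 122 to 313 FPKM in pubertal and of 58.9 to 93.9 FPKM in prepubertal libraries. Of the 6 matched, 3 were higher at an unadjusted p under 0.05 in limma, against 3.51% of all genes tested. The sums of the markers of neurons (965 to 1184 against 1094 to 1208 FPKM) and astrocytes (3388 to 3758 against 3423 to 3585 FPKM) overlapped. Among the astrocyte markers 1, ALDH1L1, was higher with no overlap. It measured 11.4, 15.2 and 19.0 FPKM in the pubertal goats against 11.1, 8.02 and 9.13 FPKM in the prepubertal goats. The 6 matched markers of the hypothalamus summed to between 1060 and 2247 FPKM over the libraries, most of it PMCH, and AVP among them was listed at 0 in all 6. Of the 5 tested, 2 were higher and 1 was lower in pubertal goats at an unadjusted p under 0.05 in limma. Over all genes tested this share was 5.16%, both directions together, and 0 of the 5 markers had an adjusted p under 0.05. GNRH1, the hormone that drives the gonadal axis, measured 13.5, 14.1 and 15.98 FPKM in the pubertal goats against 6.92, 11.6 and 5.34 FPKM in the prepubertal goats, with no overlap. The stages overlapped for POMC, higher in the pubertal mean (182.7 ± 214 against 31.6 ± 13.8 FPKM, SD, n = 3 each), and for AGRP, lower in it (18.9 ± 11.8 against 98.5 ± 76.8 FPKM, SD, n = 3 each). The median log2(FPKM + 1) of the genes with a mean of at least 1 FPKM lay between 3.80 and 3.83. The values used here are FPKM and not read counts, so no counting error is given for single values.

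The mean over the 6 libraries fell from 30.1 ± 1.60 FPKM (SD, n = 6) for NR1D2 to 1.57 ± 0.462 FPKM (SD, n = 6) for PER2, which placed NR1D2 at percentile 77.9 and PER2 at percentile 18.3 of the 16397 genes with a mean of at least 0.1 FPKM. Between them came DBP (21.7 FPKM), CRY2 (17.5 FPKM), CLOCK (16.4 FPKM), ARNTL (9.53 FPKM), CRY1 (8.59 FPKM), NR1D1 (7.45 FPKM), PER3 (6.97 FPKM) and PER1 (5.29 FPKM). Of the 9 pairs of neighbours in this order, 3 held in 6 of 6 libraries, namely CLOCK above ARNTL, PER3 above PER1, and PER1 above PER2. For each of these the exact two-sided sign-flip permutation test gave p = 0.03125, the smallest that 6 libraries allow, and 0.0938 after adjustment over the 9 pairs. The other 6 neighbours changed places in at least 1 library, with exact permutation p from 0.0625 to 0.344, so the order within each of these neighbouring pairs was within the spread between goats. Genes that are not neighbours were not tested, and NR1D2 lay above CRY2 and CLOCK in all 6 libraries.

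**Figure D1:**
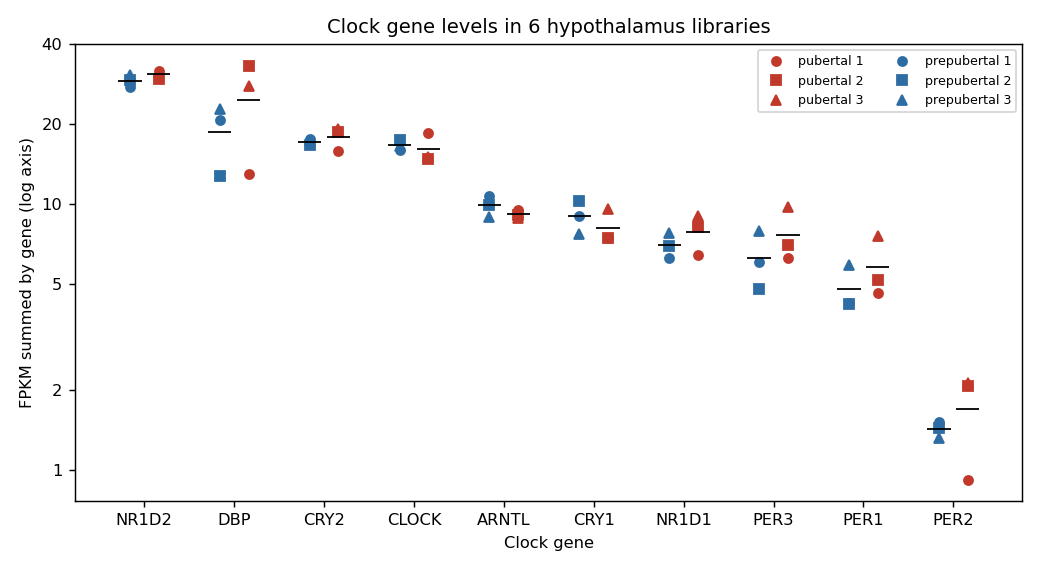
FPKM summed by gene (log axis) of each clock gene in the 6 libraries, with prepubertal goats in blue at the left and pubertal goats in red at the right, one marker shape per replicate number and a line at the mean of the stage. The stages overlap for all 10 genes, and DBP has the widest scatter among goats.

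The positive arm of the loop varied little between goats. CLOCK (gene 102175105), the subunit that pairs with BMAL1, measured 18.5, 14.8 and 15.0 FPKM in the pubertal goats against 15.96, 17.5 and 16.5 FPKM in the prepubertal goats. Its highest and its lowest values were both pubertal. ARNTL (gene 102169495), which encodes BMAL1, measured 9.54, 9.12 and 8.87 FPKM in the pubertal goats against 10.8, 9.96 and 8.96 FPKM in the prepubertal goats. Only prepubertal replicate 3 lay among the pubertal values of ARNTL. The highest library was 1.21 times the lowest for ARNTL and 1.25 times for CLOCK, against a median of 1.35 times over 14032 genes with a mean of at least 1 FPKM and no library at 0.

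The PER genes encode the repressors whose turnover sets the length of the cycle. PER1 (gene 102173685), which light and stress signals also induce, measured 4.62, 5.17 and 7.58 FPKM in the pubertal goats against 4.27, 4.23 and 5.89 FPKM in the prepubertal goats. PER3 (gene 102178645) measured 6.29, 7.03 and 9.73 FPKM in the pubertal goats against 6.04, 4.81 and 7.93 FPKM in the prepubertal goats, and put the 6 libraries in the same order as PER1. Replicate 3 was the highest of its stage for both genes, and pubertal replicate 3 was the highest of all. PER2 (gene 102178971), the least abundant member, measured 0.919, 2.07 and 2.13 FPKM in the pubertal goats against 1.52, 1.44 and 1.32 FPKM in the prepubertal goats. The prepubertal values of PER2 were close together, and 1 pubertal library lay below and the other pubertal libraries lay above all of them.

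The cryptochromes CRY1 and CRY2 encode the partners of PER that block CLOCK and BMAL1 most directly. CRY1 (gene 102188477) measured 7.45, 7.48 and 9.57 FPKM in the pubertal goats against 9.06, 10.2 and 7.73 FPKM in the prepubertal goats, with no library standing apart. CRY2 (gene 102183085), at 15.8, 18.6 and 19.1 FPKM in the pubertal goats against 17.6, 16.7 and 17.3 FPKM in the prepubertal goats, had the pattern of PER2 with a smaller range, pubertal replicate 1 lowest and the other pubertal libraries highest.

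Among the REV-ERB repressors, NR1D1 (gene 102176826) measured 6.46, 8.20 and 9.02 FPKM in the pubertal goats against 6.28, 6.95 and 7.81 FPKM in the prepubertal goats. NR1D2 (gene 102172867) measured 31.8, 29.6 and 31.5 FPKM in the pubertal goats against 27.5, 29.3 and 30.7 FPKM in the prepubertal goats, and its highest library was only 1.15 times its lowest. Prepubertal replicate 1 was the lowest library for both. DBP (gene 102178299), the D-box output gene, had the widest range of the 10 genes, 2.61 times from lowest to highest. DBP measured 13.0, 33.2 and 27.8 FPKM in the pubertal goats against 20.7, 12.7 and 22.8 FPKM in the prepubertal goats, so that each stage held 1 goat with a low value.

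The spread between goats of the same stage differed among the members. On the log2(FPKM + 1) scale the SD within the stages was 0.57 for DBP, percentile 97.8 of 14081 genes with a mean of at least 1 FPKM. It was 0.30 for PER3, 0.29 for PER2 and 0.28 for PER1, between percentiles 87.7 and 90.0. It was 0.18 for CRY1 and NR1D1, 0.13 for CLOCK, 0.10 for CRY2, 0.09 for ARNTL and 0.07 for NR1D2, the last at percentile 6.23, where the median gene had 0.15. These values describe 6 goats and were not tested.

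The comparison between the stages asks whether the clock genes differed between pubertal and prepubertal goats. Age and the phase of the cycle went with the stage in all goats. They cannot be told apart from puberty here or for any other gene compared between the stages. The test was limma on log2(FPKM + 1) across the 16397 genes with a mean of at least 0.1 FPKM, with the Benjamini-Hochberg adjustment over the same genes. None of the 10 clock genes (0) had an adjusted p under 0.05 in limma, where the share among all genes tested was 0%. None (0) had an unadjusted p under 0.05, against 5.16% of all genes, and in none (0) did the stages fail to overlap, against 9.75% of all genes. The unadjusted p-values of limma ran from 0.224 for PER3 to 0.669 for CLOCK, and the adjusted ones from 0.962 to 0.979.

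The fitted pubertal mean was above the prepubertal mean for 7 genes and below it for 3, all within the spread between goats. The median log2 fold change of the 10 genes was 0.10, against -0.00065 over all genes tested. The pubertal mean of DBP was 24.7 ± 10.5 FPKM and its prepubertal mean 18.7 ± 5.31 FPKM (SD, n = 3 in each stage), and the log2 fold change was 0.32 with a standard error of 0.34. For PER3 the stage means were 7.68 ± 1.81 FPKM (pubertal) and 6.26 ± 1.57 FPKM (prepubertal), each with the SD of 3 goats, which made a log2 fold change of 0.26 with a standard error of 0.20. For PER1 the stage means were 5.79 ± 1.58 FPKM (pubertal) and 4.79 ± 0.948 FPKM (prepubertal), each with the SD of 3 goats, which made a log2 fold change of 0.22 with a standard error of 0.19. For PER2 the stage means were 1.71 ± 0.683 FPKM (pubertal) and 1.43 ± 0.0987 FPKM (prepubertal), each with the SD of 3 goats, and its log2 fold change was 0.12. For NR1D1 the stage means were 7.89 ± 1.31 FPKM (pubertal) and 7.01 ± 0.765 FPKM (prepubertal), each with the SD of 3 goats, and its log2 fold change was 0.14.

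The log2 fold changes of NR1D2 and CRY2 were 0.09 and 0.05. The genes with a lower pubertal mean were CRY1 (-0.13), ARNTL (-0.10) and CLOCK (-0.05). The 95% intervals of the log2 fold change, from limma, ran from -0.11 to 0.28 for NR1D2, from -0.34 to 0.15 for ARNTL, from -0.30 to 0.20 for CLOCK and from -0.18 to 0.28 for CRY2. For these genes a difference between the stages of 1 on the log2 scale lay outside the interval. The interval was widest for DBP, from -0.45 to 1.10, and a pubertal level up to 2.14 times the prepubertal one, on the scale of FPKM + 1, lay inside it.

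**Figure D2:**
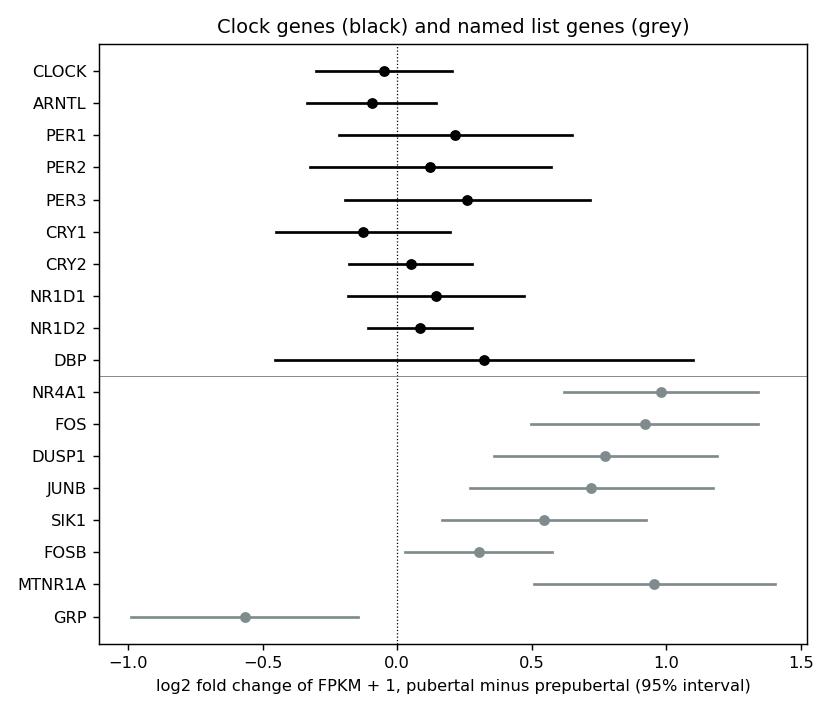
Log2 fold change of FPKM + 1, pubertal minus prepubertal (horizontal axis), with the 95% interval from limma, for the 10 clock genes (black) and for the genes of the clock-related lists that are named by the rule (grey). The intervals of all 10 clock genes cross 0, and that of DBP, from -0.45 to 1.10, is the widest.

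Single libraries moved these counts. Without pubertal replicate 1, which was low in DBP and PER2, DBP had a log2 fold change of 0.71 (unadjusted p = 0.0239 and adjusted p = 0.309 in limma) and PER2 one of 0.35 (unadjusted p = 0.0186 and adjusted p = 0.299 in limma). In that fit the stages did not overlap for 5 clock genes, namely CLOCK, CRY2, DBP, NR1D1 and PER2. However, without the same library 13.5% of all genes had an unadjusted p under 0.05, and 32.9% did not overlap. Without prepubertal replicate 3 there was no overlap for 4 clock genes, ARNTL, NR1D2, PER1 and PER3, against 18.5% of all genes, and none of them had an adjusted p under 0.05 in limma. Without pubertal replicate 3 the count with no overlap was 1 (CRY1, against 15.2% of all genes), and without pubertal replicate 2 it was 1 (NR1D2, against 21.4%).

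Since ARNTL runs in opposite phase to the genes it drives, its level was also set against each of them within the same library. The log2(FPKM + 1) of ARNTL minus that of DBP was -0.41, -1.76 and -1.55 in the pubertal goats against -0.88, -0.32 and -1.26 in the prepubertal goats. The same difference against PER1 was 0.91, 0.71 and 0.20 in the pubertal goats against 1.16, 1.07 and 0.53 in the prepubertal goats. Against NR1D1 it was 0.50, 0.14 and -0.02 in the pubertal goats against 0.69, 0.46 and 0.18 in the prepubertal goats. For PER1 and NR1D1 the difference was lowest in pubertal replicate 3 and highest in prepubertal replicate 1, while for DBP it was lowest in pubertal replicate 2 and highest in prepubertal replicate 2, so no single order of the libraries held for all partners.

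Between the stages, the mean difference was lower in pubertal goats for 7 of the 8 partners. The change was -0.42 against DBP, -0.36 against PER3, -0.31 against PER1, -0.24 against NR1D1, -0.22 against PER2, -0.18 against NR1D2, -0.14 against CRY2 and 0.03 against CRY1. The stages overlapped for all 8, and the exact two-sided permutation test of 3 against 3 libraries gave p from 0.3 to 0.7, or 0.457 to 0.7 after adjustment over the 8 pairs. This test cannot give a p under 0.1. Single libraries moved these values. Without pubertal replicate 1 the stages did not overlap for PER2, CRY2, NR1D1 and DBP, and the change was -0.83 against DBP and -0.48 against PER2. The exact permutation p was 0.1 for PER2 and 0.2 for CRY2, NR1D1 and DBP, all 0.343 after adjustment. The change against DBP was -0.16 without pubertal replicate 2 and -0.17 without prepubertal replicate 2. Without prepubertal replicate 3 the stages did not overlap for PER1, PER3 and NR1D2 (exact permutation p = 0.2, 0.2 and 0.1, each adjusted 0.4). Without pubertal replicate 3 they did not overlap for CRY1, with a change of 0.16 (exact permutation p = 0.3, adjusted 0.8). For single genes the share with no overlap was 32.9% without pubertal replicate 1, 18.5% without prepubertal replicate 3 and 15.2% without pubertal replicate 3. No such share was computed for differences between genes. The 8 differences share ARNTL and are not independent.

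The members were then compared with each other over the 6 goats. There are 45 pairs, and for each one Pearson r and Spearman rho of log2(FPKM + 1) were tested by an exact permutation test over the 720 pairings. For r, 11 of the 45 pairs had p under 0.05, and none (0) had an adjusted p under 0.05, the lowest being 0.0625. For rho, 8 pairs had p under 0.05 and the lowest adjusted p was 0.125. The share under this limit among all pairs of genes in the table was not computed. These counts therefore cannot be read as a trait of the clock genes. The relations below are therefore given as patterns of these 6 libraries that fail the correction.

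ARNTL had a negative r with 7 of its 8 partners. It was -0.846 with NR1D1 (rho -0.886, exact permutation p = 0.0333 for both), the repressor of ARNTL, and -0.925 without the libraries farthest from the median of ARNTL, prepubertal replicates 1 and 2. With each library left out in turn it lay between -0.944 and -0.815. With PER1 it was -0.805 (exact permutation p = 0.0472, rho -0.943 with exact permutation p = 0.0167), and -0.871 without the same libraries. With PER3 it was -0.740 (exact permutation p = 0.0889, rho -0.943 with exact permutation p = 0.0167). With NR1D2 it was -0.798 (exact permutation p = 0.0472, rho -0.657 with exact permutation p = 0.175), but 0.263 without the same libraries, so that this relation rested on them. The r of ARNTL was -0.484 with DBP, -0.397 with CRY2 and -0.309 with PER2. CRY1, which peaks later than the other repressors in the textbook clock, was the exception with 0.363. The r of ARNTL with CRY1 stayed positive, between 0.229 and 0.686, with each library left out in turn. It was -0.660 with prepubertal replicates 1 and 2 both left out, so its sign depended on these libraries together.

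PER1 and PER3 had the highest rho of the 45 pairs, with an r of 0.951 and a rho of 1 (exact permutation p = 0.00139 and 0.00278, adjusted 0.0625 and 0.125), and their r was 0.831 without the libraries farthest from the median of PER1, pubertal and prepubertal replicate 3. With each library left out in turn it lay between 0.906 and 0.998. Pubertal replicate 3 and prepubertal replicate 3 were the highest libraries for both. PER1 and NR1D1 had an r of 0.883 (exact permutation p = 0.0194, rho 0.771 with exact permutation p = 0.103).

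A second set of relations tied CLOCK to CRY2, PER2 and DBP. CLOCK had an r of -0.980 with CRY2 (exact permutation p = 0.00278, rho -0.943 with exact permutation p = 0.0167), -0.941 with PER2 (exact permutation p = 0.00833) and -0.945 with DBP (exact permutation p = 0.0139). Among themselves PER2 and CRY2 had an r of 0.959 (exact permutation p = 0.00694), CRY2 and DBP 0.912 (exact permutation p = 0.0222), and PER2 and DBP 0.812 (exact permutation p = 0.0472). Pubertal replicate 1 was highest for CLOCK and lowest for CRY2 and PER2, and pubertal replicate 2 was lowest for CLOCK and highest for DBP. Without these libraries the r of CLOCK with CRY2 was -0.970, and with each library left out in turn it lay between -0.998 and -0.962. With the most abundant transcript of each gene in place of the sum, however, the r of CLOCK was -0.234 with CRY2, -0.403 with PER2 and -0.304 with DBP, so these relations of CLOCK were not seen in its main transcript alone.

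**Figure D3:**
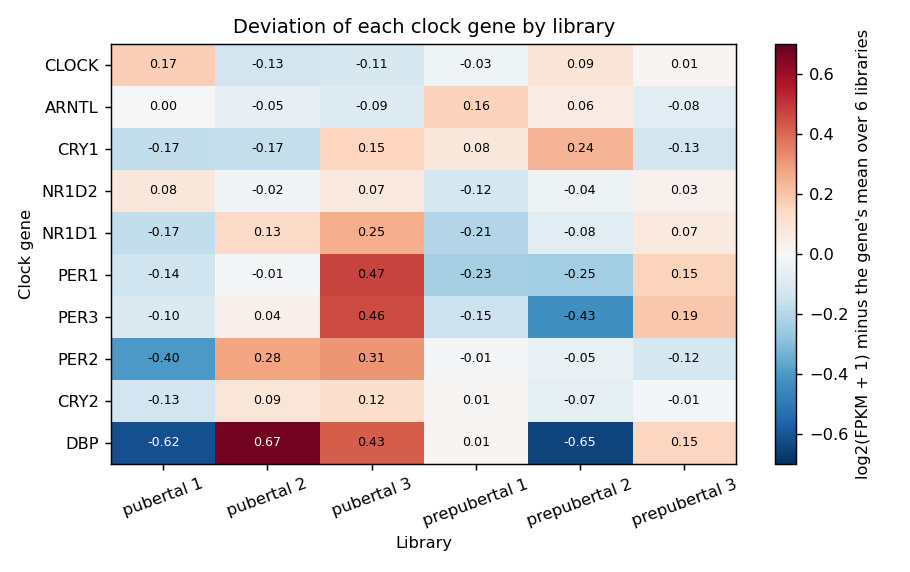
Deviation of log2(FPKM + 1) from the mean of the gene over 6 libraries, for each clock gene (rows) and library (columns), red above and blue below the mean. Pubertal replicate 3 is high for PER1 (0.47) and PER3 (0.46), and pubertal replicates 1 and 2 lie at opposite ends for DBP (-0.62 and 0.67).

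Lengths of transcripts and the whole table were set beside these relations. The median deviation of genes whose main transcript is over 5000 nt, minus that of genes under 1500 nt, was 0.094, -0.065 and 0.064 in the pubertal goats against -0.092, 0.048 and -0.047 in the prepubertal goats. CLOCK has transcripts of 9737 to 10498 nt, while that of DBP has 942 nt. The difference between long and short genes had an r of 0.527 with CLOCK and -0.544 with DBP. Its r was highest, 0.720, with NR1D2, whose transcript has 4778 nt, and between -0.365 and 0.209 with the other members. An absolute r of at least 0.9 with CLOCK was found for 7.12% of 14080 other genes, with CRY2 for 7.34%, with DBP for 6.59%, with PER1 for 3.36% and with ARNTL for 1.27%. Over the 6 libraries, the component that set pubertal replicate 3 apart had an r of 0.896 with PER1, 0.806 with PER3, 0.808 with NR1D1 and -0.697 with ARNTL. On this component the stages did not overlap. The component that set pubertal replicates 1 and 2 against each other had an r of 0.840 with CLOCK, -0.814 with DBP, -0.763 with PER2 and -0.730 with CRY2. With the component that set pubertal replicate 3 apart, PER2, CRY2 and NR1D2 also had an r of 0.558, 0.627 and 0.645. The part of these differences between libraries in the relations among clock genes was not tested. These r values are a description of 6 libraries, and the clock genes are among the genes from which the components were made.

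The genes most like a member were named for ARNTL and PER2. Over the 6 libraries, RNF14 (r = 0.985), RESP18 (0.982) and ZFP1 (0.981) were most like ARNTL among 14065 genes, and 16 genes had an r above 0.95 with it. TRAF1 (0.990), CNNM4 (0.987) and FSD2 (0.981) were most like PER2, with 40 genes above 0.95. No other clock gene was among these 6 genes, but CRY2, with an r of 0.959 with PER2, was among those above 0.95. The values describe 6 libraries only.

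For 7 clock genes the table held 1 transcript, and CLOCK, CRY1 and PER3 had several. Of the 21 transcripts, 17 had a mean of at least 0.1 FPKM and were tested in limma over all 23821 transcripts. None (0) had an adjusted p under 0.05, against 0% of all transcripts, none (0) had an unadjusted p under 0.05, against 4.87%, and none (0) had stages that did not overlap, against 9.56%. The lowest unadjusted p in limma was 0.149, for XM_013964636.1 of CLOCK (adjusted p = 0.972).

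The make-up of these genes differed between goats. In CLOCK, XM_005681630.2 held from 54.2% to 73.0% of the FPKM of the gene and XM_013964637.1 from 22.1% to 36.9%. XM_013964636.1 measured 0.00132, 2.08 and 0.000888 FPKM in the pubertal goats against 0.968, 1.51 and 1.72 FPKM in the prepubertal goats, and was near 0 in 2 of the 3 pubertal goats. In CRY1, XM_013964055.1 held from 53.3% to 82.5%, and XM_013964057.1 measured 0.000212, 2.61 and 2.72 FPKM in the pubertal goats against 1.09, 3.20 and 1.35 FPKM in the prepubertal goats. In PER3, the coding XM_005690741.2 held a steady share, 45.2% to 52.1%. The noncoding PER3 transcripts exchanged the rest, as XR_001296649.1 ran from 11.5% in prepubertal replicate 3 to 47.0% in pubertal replicate 3, and XR_001296648.1 from 6.21% in prepubertal replicate 2 to 40.1% in prepubertal replicate 3. The transcripts of a gene overlap, so the split is an estimate, and a value at or near 0 was not read as absence.

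**Figure D4:**
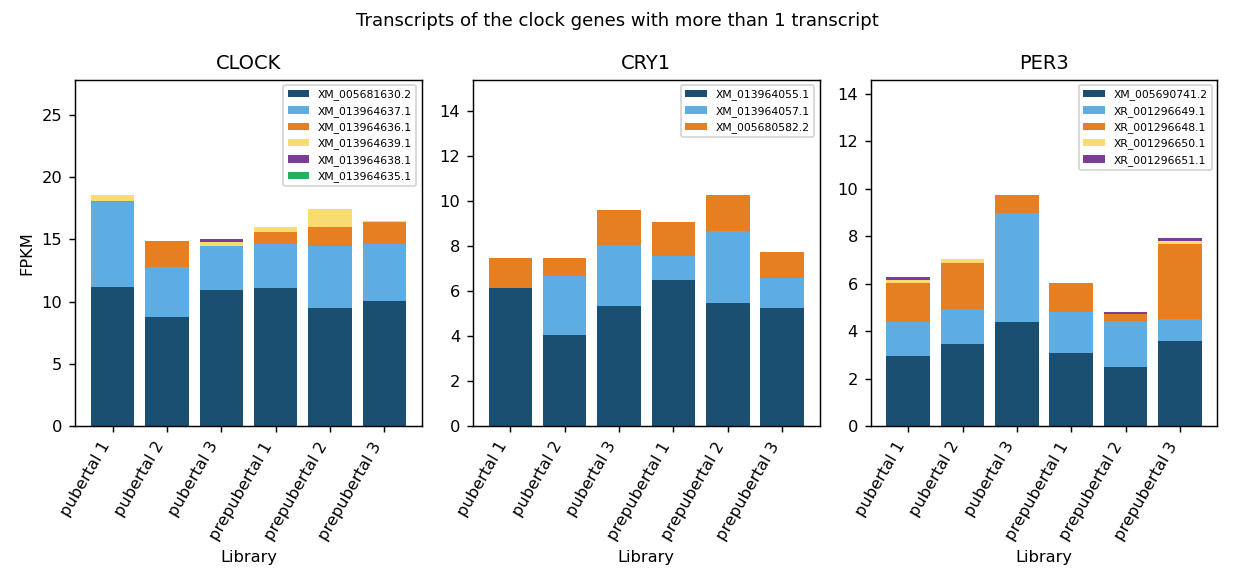
FPKM of each transcript (stacked colours) of CLOCK, CRY1 and PER3 in the 6 libraries. The coding transcript XM_005690741.2 of PER3 keeps a share of 45.2% to 52.1%, while the noncoding transcripts XR_001296649.1 and XR_001296648.1 trade places between libraries.

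In the study's list of genes within 10 kb of a lncRNA, 1 clock gene was found, PER1, beside the lncRNA XLOC_953114. Its transcript TCONS_02009105 has 943 nt, and its first 200 bases are shown as the deposited sequence of the only lncRNA paired with a clock gene there.

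TCONS_02009105: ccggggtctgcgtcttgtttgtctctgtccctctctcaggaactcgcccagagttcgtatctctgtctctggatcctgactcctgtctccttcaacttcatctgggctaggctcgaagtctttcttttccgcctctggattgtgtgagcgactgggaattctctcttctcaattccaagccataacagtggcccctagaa

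This lncRNA measured 0.325, 0.678 and 0.493 FPKM in the pubertal goats against 0.519, 0.880 and 0.548 FPKM in the prepubertal goats. The stages overlapped, and the log2(FPKM + 1) was lower in pubertal goats by a difference of -0.14 (exact two-sided permutation p = 0.4). Over the 6 libraries it had an r of -0.240 with PER1 (exact permutation p = 0.631) and a rho of -0.371 (exact permutation p = 0.497), and r was -0.341 without pubertal replicate 1 and prepubertal replicate 2. The lncRNA was below 1 FPKM in every library.

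The other genes of the clock were counted in lists taken from textbook knowledge, with earlier results of these data known. Of the 12 partners and second-loop genes, among them the CLOCK paralog NPAS2, the activators RORA and RORB, the repressors BHLHE40, BHLHE41 and NFIL3, and the D-box factors TEF and HLF, 0 had an adjusted or an unadjusted p under 0.05 in limma and 0 had stages that did not overlap. The median log2 fold change of this list was -0.03. Of the 11 matched regulators of clock proteins that were tested, which include the kinase CSNK1D, 0 passed any of these limits, with a median of -0.0075. Over all genes the share with an unadjusted p under 0.05 was 5.16%, so a count of 0 in lists of this size is near the background.

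The list of peptides and receptors of the suprachiasmatic nucleus held 16 genes, of which 14 were tested, 0 with an adjusted p under 0.05 in limma, 1 with a higher and 1 with a lower pubertal level at an unadjusted p under 0.05. MTNR1A, the melatonin receptor MT1 that carries the signal of night length, measured 0.974, 2.01 and 0.783 FPKM in the pubertal goats against 0.0588, 0.199 and 0.145 FPKM in the prepubertal goats. All 3 pubertal libraries lay above all prepubertal ones, with a log2 fold change of 0.96 and a standard error of 0.19 (unadjusted p = 0.00116, adjusted p = 0.660 in limma). Among all genes tested, 3.51% were higher in pubertal goats at an unadjusted p under 0.05, and 5.91% were higher with no overlap.

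MTNR1A is also a gene of the pars tuberalis, the part of the pituitary that clings to the base of the hypothalamus. The 6 matched markers of pars tuberalis and pituitary summed to 60.7 to 74.0 FPKM in pubertal and to 11.6 to 24.9 FPKM in prepubertal libraries. Of these markers 2 had an unadjusted p under 0.05 in limma, CGA and TSHB, against 5.16% of all genes tested. CGA, the alpha subunit of the glycoprotein hormones, measured 50.1, 62.5 and 39.4 FPKM in the pubertal goats against 2.24, 18.0 and 3.32 FPKM in the prepubertal goats. Their part in the difference of MTNR1A was not tested. GH1 was listed at 0 in all libraries but pubertal replicate 3, where it measured 7.79 FPKM.

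GRP, a peptide of cells in the core of the suprachiasmatic nucleus and of other neurons, measured 2.01, 2.72 and 3.51 FPKM in the pubertal goats against 4.47, 5.42 and 3.66 FPKM in the prepubertal goats. The stages did not overlap, and the log2 fold change was -0.57 with a standard error of 0.18 (unadjusted p = 0.0144, adjusted p = 0.822 in limma). Of the 16397 genes tested, 271 were lower in pubertal goats at an unadjusted p under 0.05, and 629 were lower with no overlap. VIP, the peptide by which cells of the nucleus keep each other in step, measured 1.13, 2.80 and 0.469 FPKM in the pubertal goats against 0.690, 0.551 and 1.51 FPKM in the prepubertal goats. NMS, another peptide of that nucleus, measured 0.595, 4.60 and 1.36 FPKM in the pubertal goats against 0.448, 0.380 and 1.28 FPKM in the prepubertal goats. Pubertal replicate 2 was highest for both peptides, as it was for MTNR1A and ADCYAP1R1 of this list. Other genes of the list were highest elsewhere, such as VIPR2 and LHX1 in pubertal replicate 3 and GRP in prepubertal replicate 2. VIP and NMS were chosen after their values were seen.

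PER1 is also a target of CREB and of the glucocorticoid receptor, so the genes that share these inputs were counted. Of 10 immediate early genes, which neurons switch on within minutes of a stimulus, 0 had an adjusted p under 0.05 in limma, but 7 were higher in pubertal goats at an unadjusted p under 0.05, against 3.51% of all genes, and 6 were higher with no overlap, against 5.91%. The median log2 fold change of this list was 0.55, and the list was chosen with earlier results of these data known. NR4A1, an orphan nuclear receptor, measured 4.29, 5.56 and 5.20 FPKM in the pubertal goats against 2.67, 1.85 and 1.68 FPKM in the prepubertal goats, a log2 fold change of 0.98 (adjusted p = 0.318 in limma). FOS, a subunit of the factor AP-1, measured 26.8, 31.9 and 19.0 FPKM in the pubertal goats against 14.0, 13.9 and 11.1 FPKM in the prepubertal goats, a log2 fold change of 0.92 (adjusted p = 0.660 in limma).

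The log2 fold changes of DUSP1, JUNB, SIK1 and FOSB were 0.77, 0.72, 0.55 and 0.30, all with no overlap between the stages. The part of the markers of meninges, vessels and pituitary, which also did not overlap between the stages, in these differences was not tested. The kinase gene SIK1 is itself induced by CREB together with PER1 in the clock of other mammals. PER1 overlapped between the stages, with a log2 fold change of 0.22. The difference between PER1 and these genes was not tested. Of the 9 matched glucocorticoid response genes, among them FKBP5 and TSC22D3, 0 passed an unadjusted p of 0.05 in limma, against 5.16% of all genes, and 0 had stages that did not overlap, against 9.75%. The median log2 fold change of this list was 0.12, and in 9 genes counts of 0 are near the background.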

How the data were processed

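The deposited FPKM of single transcripts came from 150-base paired-end reads that the authors aligned with TopHat and assembled with Scripture and Cufflinks (Cufflinks and Cuffdiff 2.1.1 in the submitters' processing notes). The genome build is not given in the sources used here. Group means, fold changes, p-values and q-values from Cuffdiff stand in the deposited comparison and were not used. FPKM was summed by gene, and symbols came from the RefSeq table of ARS1.2, which matched 19083 of 20225 genes (94.4%). limma 3.58.1 in R 4.3.3 (lmFit, eBayes with a trend, two-sided) was run on log2(FPKM + 1) with a minimum mean of 0.1 FPKM. The Cuffdiff test needs reads and was not rerun. A fold change on this scale understates the change of weakly expressed genes. Exact tests used Python 3.11.15 and numpy 2.4.6. The scripts were tested on simulated data. Replicates are separate goats, and 0 columns of single samples were left unused.

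The members, lists and tests were chosen with earlier results of these data known. Named genes were the 10 clock genes, in each clock-related list up to 6 genes with the smallest p among those with an unadjusted p under 0.05 or no overlap, and the 3 genes most like ARNTL and PER2. CGA, TSHB, GH1, GNRH1, POMC, AGRP, PMCH, ALDH1L1, VIP, NMS, VIPR2, LHX1, ADCYAP1R1 and the genes given as examples of a list are exceptions, picked with their values in view. CSNK1E, SULT1A1, OXT, HCRT, TRH, NKX2-1, PRL, CLDN5, HBB and HBA1 were not matched by symbol, which left no gene in the erythrocyte list. AVP and PROK2 were under the minimum. Of the markers of choroid plexus, oligodendrocytes, astrocytes, neurons, microglia and the forebrain outside the hypothalamus, 0, 0, 1, 0, 1 and 0 genes had an unadjusted p under 0.05. Over all genes tested 5.16% passed this limit in limma. Some members of the lists are not reported here by name. A search for motifs in promoters was planned and was not analysed here. Alternatives were another pseudocount, no or a higher minimum, quantile normalization, median centring, no trend, the replicate block, the most abundant transcript, and leaving out each library, the last also for r, which was added after seeing the data.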

Additional observations from a re-analysis of the deposited data

How the results depend on the processing

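With all 6 libraries kept, no alternative brought a clock gene under an unadjusted or adjusted p of 0.05 in limma, and 79 of 80 gene folds kept their direction. The exception was CLOCK, at 0.0066 with the most abundant transcript. XM_005681630.2 of CLOCK was at -0.0059 with quantile normalization and -0.017 with median centring. Without the libraries farthest from the median, the r of ARNTL was -0.660 with CRY1 and 0.263 with NR1D2. With each library left out in turn it ran from 0.229 to 0.686 with CRY1 and from -0.941 to -0.429 with NR1D2. The count of pairs with p of r under 0.05 (11) was 7 with the stage means subtracted. The count of suprachiasmatic genes under an unadjusted p of 0.05 (2) was 1 with a minimum mean of 1 FPKM. Over all genes, 575 were higher and 271 lower at that limit, and 462 and 377 with quantile normalization. With the replicate number as a block, 0 clock genes were called, as without it, and 847 genes in place of 846 had an unadjusted p under 0.05. Same-numbered goats had r of -0.029, -0.11 and 0.088 between their deviations, and differently numbered goats of the 2 stages had r from -0.13 to 0.17. Whether goats of the same number shared a batch was not tested.

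Leaving out each library in turn gave 0 to 2 clock genes under an unadjusted p of 0.05 and 0 to 5 with no overlap, most without pubertal replicate 1 (5) and prepubertal replicate 3 (4), and 1 each without pubertal replicates 2 and 3. For transcripts these counts were 0 to 1 (1 without pubertal replicate 1 or 2) and 0 to 4 (4 without pubertal replicate 1, 3 without prepubertal replicate 3, 2 without pubertal replicate 2). Without pubertal replicate 1, 10.6% of all transcripts had an unadjusted p under 0.05 and 28.7% did not overlap, without prepubertal replicate 3 4.17% and 18.4%, and without pubertal replicate 2 6.13% and 20.8%. List counts were 0 to 2 for the second loop, 0 to 1 for the regulators and 0 to 2 for the glucocorticoid genes, highest without pubertal replicate 1, and 1 (without prepubertal replicate 2) to 3 for the suprachiasmatic genes. The log2 fold change ran from -0.15 to 0.0045 for CLOCK, and ARNTL minus CRY1 differed between the stages by -0.050 to 0.16. The ranges of transcripts that turned direction were -0.051 to 0.11 for XM_005681630.2, -0.16 to 0.24 for XM_013964637.1 and -0.56 to 0.0019 for XM_013964639.1 of CLOCK, -0.23 to 0.0040 for XM_005680582.2, -0.25 to 0.0056 for XM_013964055.1 and -0.53 to 0.42 for XM_013964057.1 of CRY1, and -0.36 to 0.49 for XR_001296648.1 and -0.0070 to 0.59 for XR_001296649.1 of PER3. The cause was not tested. Counting error was not estimated from the FPKM values.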
